A study of Mus musculus with 38 samples.

Results

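Axon guidance ligands and receptors were followed across 12 groups of mouse brain arrays: the semaphorins with their plexin and neuropilin receptors, the ephrins with the Eph receptors, Slit with Robo, and the netrins with Dcc and the Unc5 receptors. Members were all probe sets whose mapped gene symbol starts with one of the family names (Sema, Plxn, Epha, Ephb, Efna, Efnb, Robo, Slit or Ntn with a number, Unc5) or is Nrp1, Nrp2 or Dcc, with the Slitrk genes left out. This gave 62 genes of the 15644 with a probe set. The rule uses names and no measured value, but it was set with earlier results of these data known. The rule also takes in Unc50 and Unc5cl, which share only the letters of their names with the netrin receptors. Family genes with no probe set among those named here (Efna3, Epha10, Ephb2, Plxna4, Plxnd1, Robo2, Robo3, Sema3g and Unc5d) were not analysed here.

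The study profiled RNA attached to tagged ribosomes, pulled from 1 kind of cell at a time (translating ribosome affinity purification, here "bound" RNA), and total RNA of the same kind of tissue. Tumours were dissected from 3 variants of a mouse glioma model that the submitters call Recruited, Pdgf Cre and Pdgf; each variant has 3 arrays of RNA bound in its Olig2 cells and 3 of its total RNA. For normal adult cortex, 5 lines of tagged mice were used, with 3 arrays of bound RNA from each. These lines are named for the gene that drives the tag: Snap25 (neurons), Aldh1L1 (astrocytes), Pdgfra (oligodendrocyte progenitors), Cnp1 (mature oligodendrocytes) and Olig2 (cells of the oligodendrocyte lineage, progenitors and mature cells together). Cortex total RNA has 5 arrays. All mice, tumour-bearing and wild type, were of a mixed c57/bl6j, FVB and Swiss-Webster background. Cortical samples were adult, and each was a pool of at least 2 mice; no pooling or age is stated for the tumours, and the sources used here do not say what sets the Recruited and Pdgf Cre variants apart from Pdgf. Nothing says that the arrays of a tumour group came from separate animals, so the spread behind a p-value may be partly technical. That spread is pooled per gene over the 12 groups, so an SE or p-value does not measure the spread of the compared arrays alone. A reporter line gives RNA of every cell in which its promoter is active, so each "population" is a cell class as that promoter draws it.

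Guidance molecules steer growing axons and migrating cells by attraction or repulsion. Semaphorins signal through plexins, with neuropilins as co-receptors for the secreted class 3 members; ephrins signal through Eph receptor kinases and also back into the cell that carries the ephrin; Slit proteins repel cells that carry Robo receptors; and netrins attract through Dcc or repel through Unc5 receptors. In the adult brain many of these genes remain active, and several are known from oligodendrocytes and myelin: ephrin-B3 and semaphorin 4D are carried by myelin and limit axon growth, and semaphorin, netrin and Slit signals guide oligodendrocyte progenitors.

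Unc5b is a netrin receptor on chromosome 10, and Plxnb3 a plexin on chromosome X that binds semaphorin 5A. With Efnb3 and Ephb1 they share a pattern described below, although Plxnb3 was 2.13-fold lower in tumour Olig2 cells with overlapping arrays. Unc5b and Plxnb3 were both higher in mature oligodendrocytes than in progenitors and, averaged over the tumour models, lower in tumour than in cortical Olig2 cells. Their promoters (300 bases, 250 before to 50 after the annotated start, 5′ to 3′ on the gene's strand, from RefSeq on build GRCm38.p6) are printed because both genes changed the same way in these comparisons; capitals mark matches, on either strand, to ACAAAG and AACAAT (core motifs of Sox proteins) or to CAGCTG and CAGATG (forms of the E-box that Olig2 and related factors can bind). The Unc5b window is chr10:60831532-60831831 on the minus strand and the Plxnb3 window is chrX:73756853-73757152 on the plus strand.
Unc5b: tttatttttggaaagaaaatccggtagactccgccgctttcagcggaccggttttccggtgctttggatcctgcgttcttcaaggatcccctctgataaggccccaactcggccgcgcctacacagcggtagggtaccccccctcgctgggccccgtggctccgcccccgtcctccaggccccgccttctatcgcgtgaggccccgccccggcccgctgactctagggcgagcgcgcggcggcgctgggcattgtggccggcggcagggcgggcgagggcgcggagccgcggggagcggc
Plxnb3: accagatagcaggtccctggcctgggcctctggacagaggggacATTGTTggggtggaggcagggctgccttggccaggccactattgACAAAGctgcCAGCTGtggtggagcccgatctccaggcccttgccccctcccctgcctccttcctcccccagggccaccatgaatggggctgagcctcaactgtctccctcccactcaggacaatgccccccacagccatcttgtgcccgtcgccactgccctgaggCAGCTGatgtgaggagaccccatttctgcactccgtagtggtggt
The Unc5b window held none of the 4 motifs and had a GC content of 69.7%, against a median of 52.7% over all 32851 listed promoters. The Plxnb3 window (63.7% GC) held ACAAAG at position -162, the reverse of AACAAT at position -206 (both counted from the annotated start) and CAGCTG at 2 places, with no overlap between matches. Of all listed promoters, 18.7% held ACAAAG, 10.7% AACAAT, 16.3% CAGCTG and 17.2% CAGATG. Among the 67 promoters of the 54 members in that table, the shares were 16.4%, 4.48%, 13.4% and 5.97%. All 4 shares lay under those of all listed promoters. They rest on only 11, 3, 9 and 4 of the 67 promoters, in that order, and the differences were not tested. A match describes the sequence only.

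Levels are log2 signals after a common quantile normalization of the 38 arrays. A level at or under log2 50 (5.64) is called dim, meaning too close to the array's floor to be read as an amount. Genes above that limit in at least 3 arrays were tested (9799 of 15644). A difference was called where the limma adjusted p was under 0.05 over all tested genes, the change was at least 2-fold and the higher group lay above the dim limit; "higher" and "lower" below mean called. Where the lower group was dim, the fold was counted down to the limit only and is given as "at least". A probe set's level is compared between groups, not with that of another gene. Of the members tested, 6 passed the filter through the arrays of 1 group alone (Efna1 through mature oligodendrocytes, Efnb1 astrocytes, Sema7a neurons, Slit1 cortex total RNA, Ntn1 Pdgf tumour Olig2 cells and Nrp2 Recruited tumour total RNA). They had to differ there, so their values are a description, given with no p, although the counts of calls include them. Sema4d passed the limit on only 4 arrays in 2 groups. It would not have been tested without its mature oligodendrocyte arrays, so its values there are a description too.

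The arrays of a group differed little in most groups (median gene SD 0.030 in neurons) and most in Recruited tumours (0.301 in bound and 0.453 in total RNA). Up to 29.7% of the deposited values of 2 arrays of a group were identical above the dim limit, and each group's files share a minimum of their own; whether the authors' normalization was run group by group is not given in the sources used here, and the spread between replicates may be understated. Marker genes were read in each line: all 7 measured astrocyte markers in astrocytes, all 7 mature markers in mature oligodendrocytes, all 6 progenitor markers in progenitors and 9 of 10 neuron markers in neurons were above the dim limit. Of the genes that drive the tags, the level of Olig2 is not given here. Among the cortical lines the others were highest in their own line. Aldh1l1 was at 11.45 in astrocytes, Pdgfra at 10.35 in progenitors and Cnp at 14.23 in mature oligodendrocytes against 11.43 in progenitors. Snap25 was at 15.46 in neurons, but still at 14.67 in progenitors and 14.04 in mature oligodendrocytes. Neuron markers were also above it in progenitors (8 of 10) and mature oligodendrocytes (9 of 10). All 7 mature markers were above it in progenitors, too. Array 3 of Recruited total RNA stood apart: its summed progenitor markers were at 11.23 (log2), against 14.29 and 13.90 in the other 2 arrays, its dividing-cell markers at 5.28 against 10.48 and 10.75, and its neuron markers at 16.34 against 14.95 and 14.88. Array 1 of Recruited bound RNA had summed mature oligodendrocyte markers of 15.01, against 16.23 and 16.75, and summed microglia and macrophage markers of 12.81, against 10.66 and 8.36.

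Of the 62 members, 36 passed the filter and were tested, 37 had a mean above the dim limit in at least 1 group, and 25 had none. Unc50, Efnb3, Ephb1 and Robo1 were above the limit in all 12 groups. By family, 11 of 19 semaphorins, 6 of 9 plexins and neuropilins, 4 of 7 ephrins, 5 of 12 Eph receptors, 3 of 5 Slit and Robo genes and 6 of 8 netrins and netrin receptors were tested. The most members lay above the limit in cortex total RNA (23), Recruited tumour total RNA (22), Pdgf Cre tumour total RNA (21) and neurons (21), and the fewest in astrocytes (12). Of all tested genes, 75.2% to 75.7% lay above it in every group. Olig2 cells had 17 in Recruited tumours, 15 in Pdgf Cre tumours, 15 in Pdgf tumours and 15 in cortex.

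**Figure D1:**
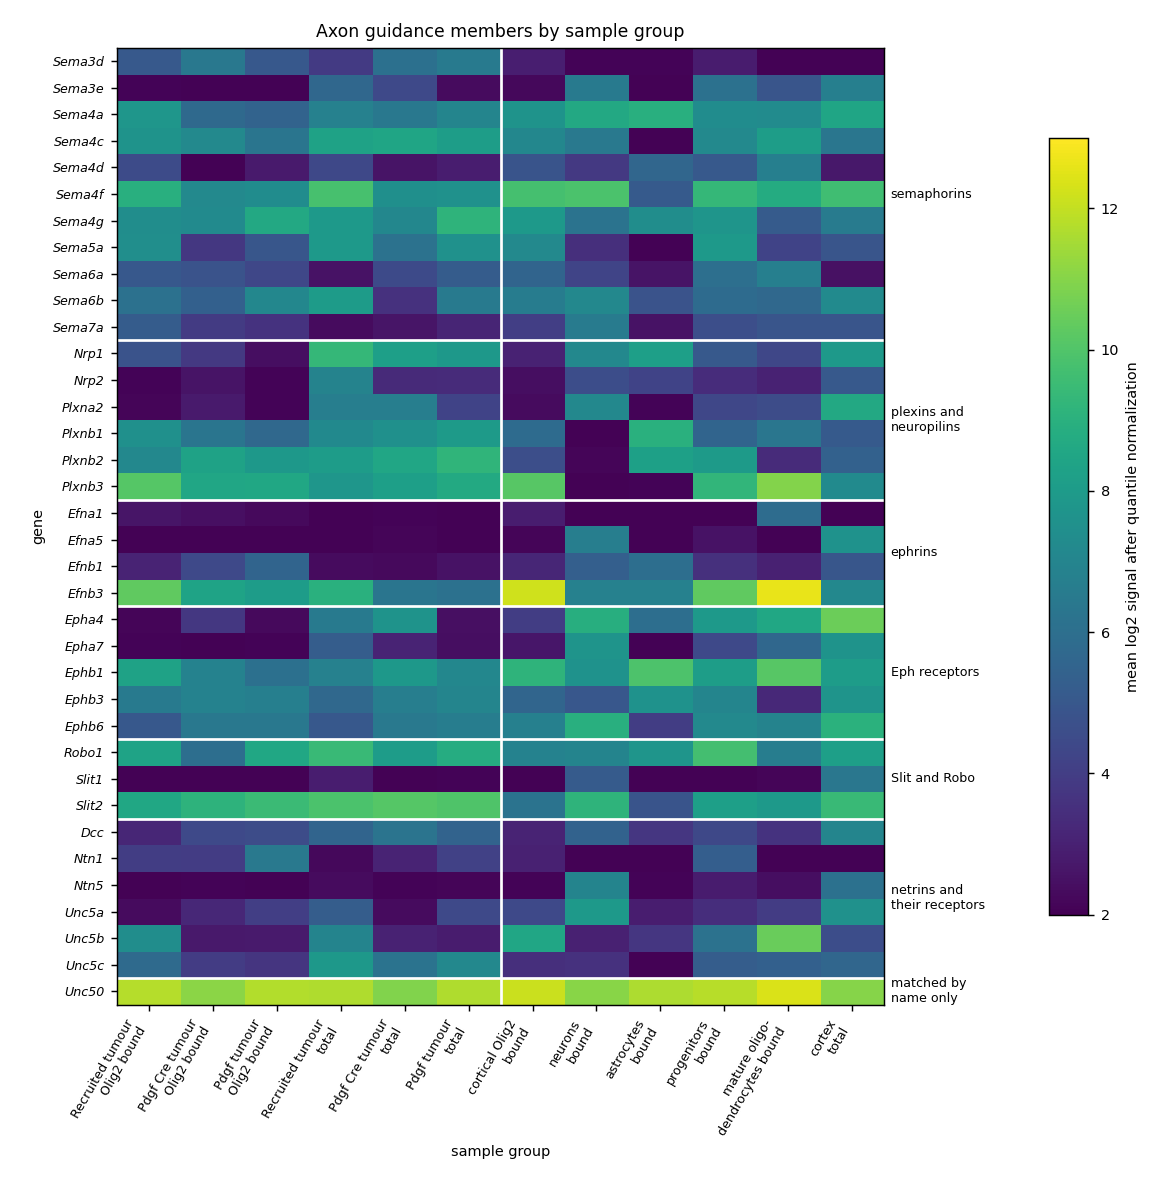
Mean log2 signal of the 36 tested guidance genes (rows) in the 12 groups (columns, tumour groups left), coloured by level. Genes such as Efna5, Ntn5 and Slit1 are above the dim limit in cortex total RNA and below it in the tumour groups, while Efnb3, Ephb1 and Robo1 are above the limit in all columns.

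The first question the design poses is which guidance genes each cortical cell class carries above its tissue. Cells of the oligodendrocyte lineage carried a set of their own: Unc5b, Efnb3 and Plxnb3 were higher in mature oligodendrocytes, progenitors and cortical Olig2 cells than in cortex total RNA. Efna5, Epha4, Epha7, Ephb6, Plxna2, Unc5a, Ntn5, Slit1 and Dcc were lower than in cortex total RNA in astrocytes and in all 3 lines of the lineage; of these, Epha4, Plxna2, Slit1 and Dcc were lower in neurons too. In bulk RNA of this kind, fewer cells of a type and less RNA per cell cannot be told apart.

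In mature oligodendrocytes 10 of the 36 tested members were higher and 17 lower than in cortex total RNA, which is 75.0% of them, against 46.8% of all tested genes called in either direction (22.7% higher and 24.1% lower). The median member difference was -1.48 (log2) and that of all genes -0.04. Unc5b was at 10.35, 10.36 and 10.75 in mature oligodendrocytes, against 4.83, 4.53, 4.55, 4.56 and 4.54 in cortex total RNA, a difference of 5.88 ± 0.26 (SE; limma adjusted p = 1.92e-18) and at least 28.7-fold. Efnb3, the gene of the transmembrane ligand ephrin-B3, was at 12.66, 12.71 and 12.47 in mature oligodendrocytes, against 7.22, 6.84, 7.19, 7.19 and 7.32 in cortex total RNA (44.1-fold, 5.46 ± 0.47, adjusted p = 1.75e-11). The arrays of the 2 groups lay far apart for both genes. Plxnb3 (13.1-fold), Ephb1 (4.12-fold), an Eph receptor for B ephrins, and the transmembrane semaphorin Sema4c (3.48-fold) were higher too. Sema6a (at least 2.13-fold), Sema4d (at least 2.17-fold), the ligand of plexin B1, and Plxnb1 itself (at least 1.62-fold) were higher from a dim level in cortex. Efna1, a GPI-anchored ephrin, reached 5.88, 5.86 and 5.89 in mature oligodendrocytes, the sole group where it passed the dim limit, against 2.08 in all 5 cortex arrays; the bound is 1.18-fold. Unc50, an inner nuclear membrane protein gene with no guidance role, was 2.57-fold higher.

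Among the 17 lower members, Ephb3 was at 3.27, 3.27 and 3.25 in mature oligodendrocytes, against 7.59, 7.69, 7.79, 7.74 and 7.57 in cortex total RNA (at least 4.08-fold lower, log2 difference -4.41 ± 0.20, adjusted p = 9.81e-18). Plxna2, a receptor for class 3 and 6 semaphorins, was at 4.54 in each of the 3 arrays of mature oligodendrocytes, against 8.65 ± 0.25 in cortex total RNA (SD, n = 5; at least 8.06-fold lower). The neuropilin Nrp1 (at least 4.87-fold), the GPI-anchored ephrin Efna5 (at least 3.95-fold), Unc5a (at least 3.74-fold), Dcc (at least 2.55-fold), Slit1 (at least 1.64-fold) and Ntn5 (at least 1.37-fold) were lower as well. All 6 fell to a dim level in mature oligodendrocytes. All 3 tested Slit and Robo genes and 4 of 5 tested Eph receptors were lower, Ephb1 being the Eph receptor that was higher.

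Progenitors had 8 members higher and 13 lower than cortex total RNA, 58.3% of the 36 against 41.4% of all genes (20.7% in each direction). Sema5a, a transmembrane semaphorin with thrombospondin repeats that binds plexin B3, was at 7.92, 7.94 and 7.89 in progenitors, against 4.91, 4.86, 4.89, 4.88 and 4.99 in cortex total RNA (at least 4.83-fold, 3.01 ± 0.25, adjusted p = 9.91e-12). Robo1, a Slit receptor, was at 9.91, 9.92 and 9.31 in progenitors, against 8.33, 8.19, 8.35, 7.85 and 8.28 in cortex total RNA (2.85-fold, 1.51 ± 0.39, adjusted p = 0.00107). No arrays overlapped for either gene. Plxnb2, a receptor for class 4 semaphorins, was at least 5.09-fold higher, Efnb3 9.01-fold, Plxnb3 3.92-fold, Sema4g 2.21-fold, Unc5b at least 1.41-fold and Sema6a at least 1.29-fold; Sema4g was not called on the deposited values or with spike-in scaling. The netrin attractant receptor Dcc (at least 2.55-fold), Unc5a (at least 3.74-fold), Epha7 (at least 4.01-fold), Plxna2 (at least 8.06-fold) and Epha4 (6.25-fold), a receptor for both ephrin classes, were among the 13 lower ones. So were Nrp1 (at least 4.87-fold), Efna5 (at least 3.95-fold), Slit1 (at least 1.64-fold) and Ntn5 (at least 1.37-fold).

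Cortical Olig2 cells, which hold both stages, had 7 members higher and 14 lower (58.3% of members, 49.3% of all genes, with 25.6% higher and 23.7% lower). Efnb3 (32.8-fold), Plxnb3 (7.40-fold), Unc5b (at least 7.39-fold), Sema5a (at least 2.87-fold), Sema4g (2.55-fold), Unc50 (2.20-fold) and Ephb1 (2.10-fold) were the higher ones. With spike-in scaling Sema4g, Unc50 and Ephb1 were not called, and Ephb1 was not called on the deposited values either. Epha4 was at 3.98, 3.99 and 3.97 in cortical Olig2 cells, against 10.57, 10.28, 10.74, 10.45 and 10.63 in cortex total RNA, at least 29.6-fold lower (-6.55 ± 0.37, adjusted p = 1.17e-15). Plxna2 (at least 8.06-fold), Nrp1 (at least 4.87-fold), Epha7 (at least 4.01-fold), Efna5 (at least 3.95-fold), Sema3e (at least 2.14-fold), Slit1 (at least 1.64-fold) and Ntn5 (at least 1.37-fold) were lower too. In the Pdgfra and Cnp1 lines of the same lineage it stayed above the dim limit, at 7.69, 8.11 and 7.86 in progenitors and 8.37, 8.37 and 8.92 in mature oligodendrocytes. For Epha4 the Olig2 line thus lay below both of the other lines of its lineage. Slit2, a secreted repellent, showed the same order, with 5.95, 5.98 and 6.65 in cortical Olig2 cells and 7.67 to 8.53 in the arrays of both stages. The neuron markers above the dim limit were 6 of 10 in cortical Olig2 cells, 8 of 10 in progenitors and 9 of 10 in mature oligodendrocytes, and their summed level was 12.84 to 13.66, 14.84 to 15.02 and 14.65 to 14.69 in the same order; their part in these differences was not tested.

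Neurons differed least from cortex total RNA, with 1 member higher and 7 lower (22.2% of members, 22.4% of all genes, 11% higher and 11.4% lower). Sema7a, a GPI-anchored semaphorin, was at 6.56, 6.57 and 6.57 in neurons, against 4.90 to 4.95 in cortex total RNA (at least 1.90-fold higher, 1.65 ± 0.09). Plxnb3 was at 2.08 in all neuron arrays, against 6.74 to 7.49 in cortex total RNA (at least 3.04-fold lower), and Ephb3 at least 4.08-fold lower. Epha4 (3.11-fold), Dcc (at least 2.55-fold), Plxna2 (2.91-fold), Robo1 (2.37-fold) and Slit1 (at least 1.64-fold) were lower as well. With the deposited values in place of the quantile-normalized ones, Epha4 and Robo1 were no longer called, and the median of all genes moved to 0.66 (log2).

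Astrocytes had 4 members higher and 15 lower (52.8% of members, 55.8% of all genes, 29.1% higher and 26.7% lower). Plxnb1, the semaphorin 4D receptor, was at 9.12, 8.74 and 9.11 in astrocytes, against 4.97, 5.01, 5.39, 5.17 and 5.04 in cortex total RNA (at least 10.2-fold, 3.87 ± 0.28, adjusted p = 2.10e-13). Plxnb2 was at 8.85, 7.01 and 8.88 in astrocytes, against 5.14 to 5.80 in cortex total RNA (at least 6.08-fold, 2.81 ± 0.45); array 2 was the low one, and without it the log2 difference was 3.43. Both B plexins were thus high, Ephb1 was 3.59-fold higher and Efnb1, a transmembrane ephrin, at least 1.25-fold. Efnb1 was not called on the deposited values, with spike-in scaling or with the stricter filter (a signal of 100). No tested semaphorin was higher in astrocytes, and 4 of 11 were lower (Sema4f at least 15.7-fold, Sema6b at least 3.09-fold, Sema3e at least 2.14-fold, Sema4c at least 1.58-fold). Slit2 was lower by at least 14.2-fold, Ephb6 by at least 10.3-fold, Plxna2 by at least 8.06-fold, Epha7 by at least 4.01-fold, Efna5 by at least 3.95-fold, Unc5a by at least 3.74-fold and Plxnb3 by at least 3.04-fold.

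**Figure D2:**
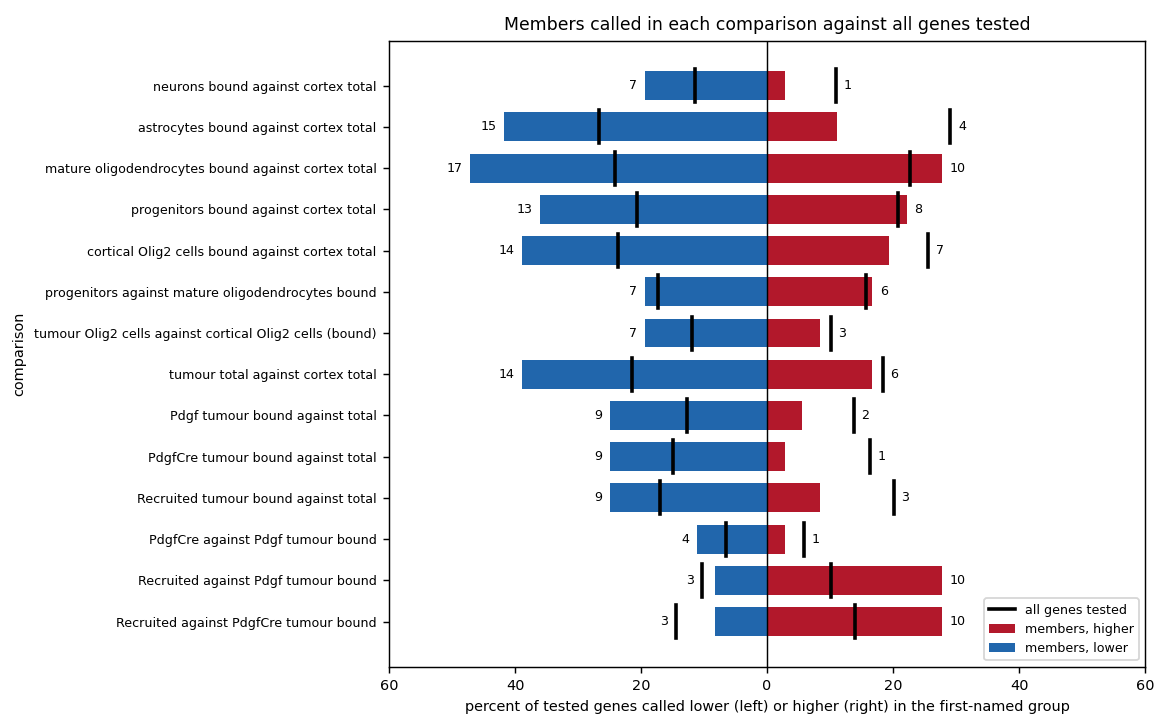
Percent of the 36 tested guidance genes called lower (bars to the left) or higher (bars to the right) in the first-named group of each comparison, with the number of genes beside each bar; black ticks mark the percent of all 9799 tested genes. Mature oligodendrocytes have 17 members lower and 10 higher, and the Recruited tumours have 10 higher against either other model.

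Set against each other, the 4 cell-type lines divided 17 members among them by the rule that a gene be higher in 1 population than in each of the other 3. Neurons held 8 (22.2% of members, 11.4% of all genes), mature oligodendrocytes 5 (13.9% and 6.87%), astrocytes 2 (5.56% and 12%) and progenitors 2 (5.56% and 4.05%). In neurons these were Unc5a (7.67, 7.91 and 8.10; at least 4.75-fold over the next population), Plxna2 (at least 2.77-fold), Ntn5 (at least 2.46-fold), Efna5 (at least 2.06-fold), Sema7a (at least 1.90-fold), Epha7 (4.03-fold), Ephb6 (3.40-fold), an Eph receptor without kinase activity, and Sema6b (2.39-fold). In mature oligodendrocytes Unc5b stood 20.4-fold above progenitors, its next population, with Efnb3 4.89-fold and Plxnb3 3.34-fold above the same. Sema4d was at least 2.17-fold above astrocytes, and Efna1 at least 1.18-fold above all 3 others. For Efna1 its place in the filter fixed this, and Sema4d was tested only through its mature oligodendrocyte arrays. Astrocytes held Plxnb1 (6.27-fold over mature oligodendrocytes) and Nrp1 (8.25, 8.34 and 8.01, against 6.78, 7.36 and 7.31 in neurons, 2.07-fold); Nrp1 lost this place without neuron array 1 or astrocyte array 2 and on both other scales tried. Progenitors held Sema5a (at least 4.83-fold) and Robo1 (3.98-fold over astrocytes).

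The next comparison followed the lineage from mature oligodendrocytes back to progenitors. Of the 36 members 6 were higher in progenitors and 7 lower, 36.1% against 33% of all genes (15.7% higher and 17.3% lower), so the share called was near that of genes in general. Plxnb2 was at 7.92, 8.10 and 7.95 in progenitors, against 3.21, 3.19 and 3.61 in mature oligodendrocytes (at least 5.09-fold, 4.66 ± 0.50, adjusted p = 2.95e-09). Sema5a was at 7.92, 7.94 and 7.89 in progenitors, against 4.21, 4.20 and 4.20 in mature oligodendrocytes (at least 4.83-fold, 3.71 ± 0.28, adjusted p = 1.67e-12). Robo1 was at 9.91, 9.92 and 9.31 in progenitors, against 6.75, 6.45 and 6.76 in mature oligodendrocytes (8.33-fold, 3.06 ± 0.44, adjusted p = 6.14e-07). Sema4g (at least 4.26-fold), Ephb3 (at least 2.61-fold) and Sema3e (at least 1.37-fold), a secreted semaphorin, completed the higher ones.

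On the lower side stood the members that were high in mature cells. Unc5b was at 6.13, 6.15 and 6.13 in progenitors, against 10.35, 10.36 and 10.75 in mature oligodendrocytes, 20.4-fold lower (-4.35 ± 0.29, adjusted p = 7.73e-14). Efnb3 was at 10.29, 10.47 and 10.21 in progenitors, against 12.66, 12.71 and 12.47 in mature oligodendrocytes (4.89-fold lower, adjusted p = 0.000423). Ephb1 was at 8.33, 8.44 and 7.55 in progenitors, against 10.12, 10.13 and 10.13 in mature oligodendrocytes (4.05-fold lower, adjusted p = 0.000200). The arrays of both groups lay apart for all 3 genes, and progenitor array 3 was the low one for Ephb1. Plxnb3 was 3.34-fold lower, Sema4d at least 2.17-fold, Efna1 at least 1.18-fold and Epha7 at least 1.03-fold. Epha7 was not called on the deposited values, with spike-in scaling or with the stricter filter, which also lost Efna1. Beside these, all 7 mature markers were lower and all 6 progenitor markers higher in progenitors, and no neuron marker of 10 was called; the part of any of these in the members' differences was not tested.

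The design also asks how Olig2 cells of tumours differ from Olig2 cells of normal cortex. Averaged over the 3 models, tumour Olig2 cells had more Plxnb2, Slit2 and Ephb3 and less Unc5b, Efnb3, Ephb1, Sema4f, Sema5a, Sema4a and Plxnb3. That is 3 members higher and 7 lower of 36 (27.8%, against 22.0% of all genes, 10.1% higher and 11.9% lower). The median difference was -0.13 (log2) for members and 0.03 for all genes. Tumour and cortical arrays form separate datasets in the labels, so tumour and dataset cannot be told apart in any of these values.

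Slit2 was at 8.45, 9.21 and 7.96 in Recruited, 8.62, 9.38 and 9.30 in Pdgf Cre and 8.998, 9.41 and 10.07 in Pdgf tumour Olig2 cells, against 5.95, 5.98 and 6.65 in cortical Olig2 cells. All 9 tumour arrays lay above all 3 cortical ones (7.21-fold, 2.85 ± 0.35, adjusted p = 5.04e-08). Plxnb2 was at 6.78, 8.49 and 6.13 in Recruited, 8.04, 8.48 and 8.55 in Pdgf Cre and 7.66, 8.49 and 7.49 in Pdgf tumour Olig2 cells, against 4.97, 4.96 and 4.04 in cortical Olig2 cells. Again no array overlapped (at least 4.42-fold, 3.13 ± 0.41, adjusted p = 1.54e-07). In progenitors of normal cortex Plxnb2 was at 7.92 to 8.10 and Slit2 at 7.82 to 8.53. The mean of Slit2 was also 7.89 in mature oligodendrocytes, 9.13 in neurons and 9.48 in cortex total RNA. For Slit2 the cortical Olig2 line thus lay below both stages of its lineage, and the fold was counted from that low level. Ephb3 was at 6.25 to 6.91 in the tumour arrays, against 5.37 to 5.78 in cortical Olig2 cells (at least 2.10-fold, 1.11 ± 0.19); without cortical Olig2 array 3 the difference was 0.99 and no longer 2-fold.

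Among the lower members, the Recruited arrays often lay nearer to cortex than those of the other models. Efnb3 was at 7.999, 11.02 and 11.98 in Recruited, 8.39, 8.40 and 8.40 in Pdgf Cre and 7.76, 8.56 and 7.88 in Pdgf tumour Olig2 cells, against 12.30, 12.26 and 11.999 in cortical Olig2 cells (9.55-fold lower, -3.26 ± 0.43, adjusted p = 1.99e-07). Unc5b was at 5.98, 8.03 and 8.21 in Recruited, 2.72, 2.75 and 2.74 in Pdgf Cre and 2.73, 2.84 and 2.86 in Pdgf tumour Olig2 cells, against 8.55, 8.52 and 8.52 in cortical Olig2 cells. Averaged over models, it was at least 7.39-fold lower (-4.21 ± 0.23, adjusted p = 2.48e-15), with no array of the 2 sides overlapping, yet Recruited arrays 2 and 3 came close to the cortical level. For the other 5 the arrays overlapped through the Recruited model. Sema5a was at 7.003, 7.69 and 7.67 in Recruited, 3.74, 3.81 and 3.78 in Pdgf Cre and 4.29, 5.59 and 4.99 in Pdgf tumour Olig2 cells, against 7.16, 7.004 and 7.33 in cortical Olig2 cells (at least 2.87-fold lower on average). Ephb1 (4.21-fold), Sema4f (3.81-fold), Sema4a (2.49-fold) and Plxnb3 (2.13-fold) were likewise lower on average, and Plxnb3 was not called on the deposited values. The Recruited means of Sema4a (7.76) and Plxnb3 (10.10) lay close to those of cortical Olig2 cells (7.66 and 10.14). Without Recruited array 1, 3 members were higher and 6 lower.

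With the Recruited model left out, a choice made after seeing these arrays, all 10 calls held and Sema3d was added (4 higher and 7 lower members, against 12.8% higher and 13.1% lower of all genes). The falls were deeper in Unc5b (log2 difference -5.75 ± 0.25, against -4.21), Efnb3 (-3.96 ± 0.46), Sema5a (-2.80 ± 0.24), Ephb1 (-2.70 ± 0.38), Sema4f (-2.48 ± 0.31), Sema4a (-2.03 ± 0.28) and Plxnb3 (-1.62 ± 0.28). Sema3d, a secreted semaphorin that was at 2.08 to 2.92 in every cortical array, was at 4.38, 6.33 and 4.48 in Recruited, 7.16, 5.35 and 6.75 in Pdgf Cre and 5.02, 5.03 and 5.01 in Pdgf tumour Olig2 cells, which straddles the dim limit. Cell type markers differed as well. All 7 mature oligodendrocyte markers and 4 of 7 astrocyte markers were lower in tumour Olig2 cells, and 4 of 6 progenitor and all 3 dividing-cell markers higher. So were 3 of 7 microglia and macrophage markers (median difference 1.72, log2), and 6 of 10 neuron markers were lower (median -1.93). Mature markers above the dim limit numbered 7 of 7 in Recruited, 6 of 7 in Pdgf Cre (Aspa dim), 3 of 7 in Pdgf (Mog, Mag, Mobp and Aspa dim) and 7 of 7 in cortical Olig2 cells. Their summed level was 15.01 to 16.75 in Recruited, 11.49 to 12.74 in Pdgf Cre and 11.91 to 12.46 in Pdgf tumour cells, against 16.34 to 16.37 in cortical Olig2 cells; the part of any of these cells in the members' differences was not tested.

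**Figure D3:**
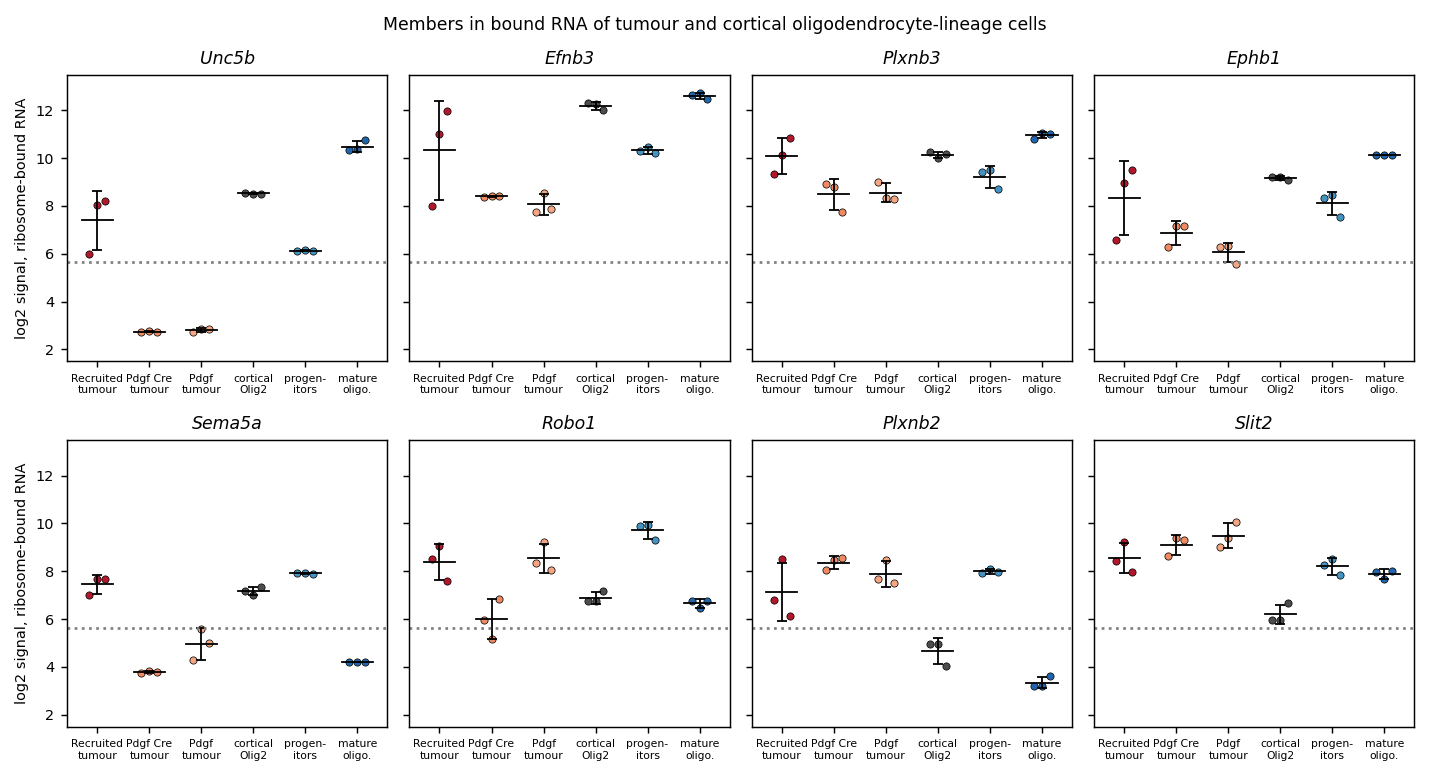
Log2 signal of 8 guidance genes in bound RNA of tumour Olig2 cells (3 models, left), cortical Olig2 cells, progenitors and mature oligodendrocytes; points are arrays, bars are mean ± SD (n = 3), and the dotted line is the dim limit of 5.64. Unc5b, Efnb3, Plxnb3 and Ephb1 are highest in mature oligodendrocytes and lower in the Pdgf and Pdgf Cre tumours, while Plxnb2 and Slit2 are above cortical Olig2 cells in every tumour model.

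Whole tumours were also compared with whole cortex. Efna5, Epha7, Ntn5, Unc5a, Ephb6, Plxna2 and Sema6b, all highest in neurons among the 4 cell-type lines, were lower in tumour total RNA, as were Epha4 and Slit1, while the B plexins Plxnb1 and Plxnb2 and the semaphorins Sema4c, Sema4g and Sema5a were higher. Of the 36 members 6 were higher and 14 lower (55.6%, against 39.9% of all genes, 18.4% higher and 21.5% lower); the members' median was -0.44 (log2) and that of all genes -0.06. Plxnb2 was at 8.03, 9.12 and 7.12 in Recruited, 8.47, 8.25 and 8.87 in Pdgf Cre and 8.95, 10.06 and 8.53 in Pdgf tumours, against 5.14, 5.37, 5.80, 5.46 and 5.41 in cortex (at least 7.76-fold, 3.16 ± 0.34, adjusted p = 1.63e-09). Plxnb1 was at least 3.82-fold higher, Sema4c 4.04-fold, Sema5a at least 2.96-fold, Sema4g 2.76-fold and Unc5c at least 2.66-fold. Each of these 6 was higher in all 9 tumour arrays than in any cortex array.

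Epha4 was at 5.91, 5.22 and 8.33 in Recruited, 7.61, 8.54 and 6.84 in Pdgf Cre and 2.44, 2.46 and 2.48 in Pdgf tumours, against 10.28 to 10.74 in cortex (at least 29.6-fold lower on average, -4.996 ± 0.28, adjusted p = 1.47e-15). The tumour models thus differed widely for this receptor while all lay under cortex. Efna5 was at 2.08 to 2.22 in the 9 tumour arrays, against 7.66, 7.58, 7.64, 7.62 and 7.64 in cortex (at least 3.95-fold lower). Ephb6 was 7.86-fold lower, Plxna2 6.87-fold, Sema4a 3.30-fold, Dcc 2.35-fold, Slit1 at least 1.64-fold and Ntn5 at least 1.37-fold. The other 6 lower members (Epha7, Unc5a, Sema3e, Sema4f, Sema6b and Ephb3) had overlapping arrays, and with the deposited values Sema4f, Sema6b, Ephb3 and Dcc were not called; the last 3 were lost with spike-in scaling too. Recruited array 3, the one with high neuron markers, held 7.36 for Epha7, 7.19 for Unc5a and 6.71 for Sema3e, each within the range of cortex or next to it, and without that array 8 members were higher and 14 lower. All 10 neuron markers were lower in tumour total RNA (summed 13.31 to 16.34, against 15.95 to 16.19 in cortex), and all 7 tested microglia and macrophage markers and 6 of 6 progenitor markers were higher. Also higher were 7 of 8 markers of pericytes, smooth muscle and fibroblasts, 2 of 2 of endothelium and 3 of 3 of dividing cells; the part of these cells was not tested.

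Within each tumour, bound RNA of Olig2 cells was set against total RNA of the same model. Nrp1, the class 3 semaphorin and VEGF co-receptor, was lower in Olig2 cells of all 3 models, as was Unc5c, and Efnb3 was higher. Counts were 3 higher and 9 lower in Recruited (33.3% of members, 37.1% of all genes, 20.1% higher and 17% lower), 1 and 9 in Pdgf Cre (27.8% and 31.3%, with 16.3% and 15% by direction) and 2 and 9 in Pdgf tumours (30.6% and 26.5%, with 13.8% and 12.7% by direction). In each model the share of members that was higher lay under that of all genes. With spike-in scaling the Recruited counts were 1 higher and 19 lower.

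Nrp1 in bound RNA was at 4.35, 5.76 and 4.32 in Recruited, against 8.82, 10.15 and 8.96 in Recruited total RNA. The bound values were 3.69, 3.55 and 4.22 in Pdgf Cre, against 8.22, 7.83 and 8.54 in total RNA, and 2.30, 2.55 and 2.39 in Pdgf, against 8.02, 7.46 and 8.08 in total RNA. It was therefore at least 12.7-fold lower in Recruited (-4.49 ± 0.32), at least 5.87-fold in Pdgf Cre (-4.37 ± 0.32) and at least 4.62-fold in Pdgf Olig2 cells (-5.44 ± 0.32). Unc5c, a netrin receptor, was 4.13-fold lower in Recruited, at least 1.46-fold in Pdgf Cre and at least 2.78-fold in Pdgf bound RNA. Beside these, the endothelial markers (2 of 2 tested) were lower in bound RNA of all 3 models and dim there throughout, microglia and macrophage markers were lower for 6 of 7 in Recruited, 7 of 7 in Pdgf Cre and 7 of 7 in Pdgf, and those of pericytes, smooth muscle and fibroblasts for 7, 5 and 7 of 8. The part of these cells in the members' differences was not tested.

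Efnb3 in bound RNA was at 7.999, 11.02 and 11.98 in Recruited, against 8.18, 8.60 and 10.16 in total RNA, so that the Recruited arrays overlapped (2.55-fold higher, adjusted p = 0.0251). It was at 8.39, 8.40 and 8.40 in Pdgf Cre bound RNA, against 6.14, 6.36 and 6.32 in total RNA (4.36-fold), and at 7.76, 8.56 and 7.88 in Pdgf bound RNA, against 5.92, 6.34 and 6.05 in total RNA (3.91-fold). With spike-in scaling Efnb3 was called in none of the 3 models, and with the deposited values in Pdgf Cre alone. Plxnb3 was at 9.33, 10.13 and 10.83 in Recruited bound RNA, against 7.47, 8.39 and 7.48 in total RNA (4.99-fold, 2.32 ± 0.32, adjusted p = 3.60e-07), and Ephb1 was 2.81-fold higher there with overlapping arrays, a call lost on the deposited values and with spike-in scaling. Beside both, 6 of 7 mature oligodendrocyte markers were higher in Recruited bound than total RNA (median 2.84, log2) and 9 of 10 neuron markers lower; of the mature markers, 1 was higher in Pdgf Cre and none in Pdgf bound RNA, and the part of these cells was not tested. Ntn1, the founding netrin, was at 6.43, 6.50 and 6.42 in Pdgf bound RNA, against 3.88, 4.53 and 3.998 in Pdgf total RNA (at least 1.75-fold higher; not called on the deposited values). These 3 arrays held the only values of Ntn1 above the dim limit in the series, the next being 5.28 to 5.30 in progenitors.

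The other lower members differed by model. In Recruited bound RNA Nrp2 was at 2.08, 2.12 and 2.08, against 6.77, 7.25 and 6.79 in total RNA (at least 2.45-fold lower), with Plxna2 (at least 2.11-fold), Sema6b (3.78-fold), Slit2 (2.55-fold, arrays overlapping) and Robo1 (2.10-fold) also lower. Epha4 (at least 1.79-fold) and Sema3e (at least 1.02-fold) were lower through Recruited total array 3: without it neither mean passed the dim limit and neither was called, and the count was 4 higher and 9 lower. In Pdgf Cre bound RNA Epha4 was at 3.73, 3.79 and 3.76, against 7.61, 8.54 and 6.84 in total RNA (at least 4.06-fold lower), with Robo1 (4.25-fold, arrays overlapping), Sema4c (2.47-fold), Plxnb1 (2.35-fold), Plxna2 (at least 2.09-fold), Dcc (at least 1.52-fold) and Sema5a (at least 1.43-fold) also lower. In Pdgf bound RNA Plxnb1 (4.93-fold), Sema5a (at least 3.83-fold), Sema4c (3.64-fold), Sema4a (at least 2.55-fold), Plxnb2 (2.47-fold), Ephb1 (2.06-fold) and Sema3d (at least 1.77-fold) were lower. Sema4c, Plxnb2 and Sema3d in Pdgf, Sema4c in Pdgf Cre and Robo1 in Recruited bound RNA were no longer called without certain arrays: leaving out Pdgf bound array 3, which had Sema4c at 4.33, gave -0.89 for that gene, leaving out Pdgf total array 2 gave -0.86 for Plxnb2, and leaving out Pdgf Cre total array 1 gave -1.05 for Sema4c. Leaving out Pdgf total array 1 put the adjusted p of Sema3d at 0.0512 (limma), and leaving out Recruited bound array 3 gave -0.67 for Robo1.

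**Figure D4:**
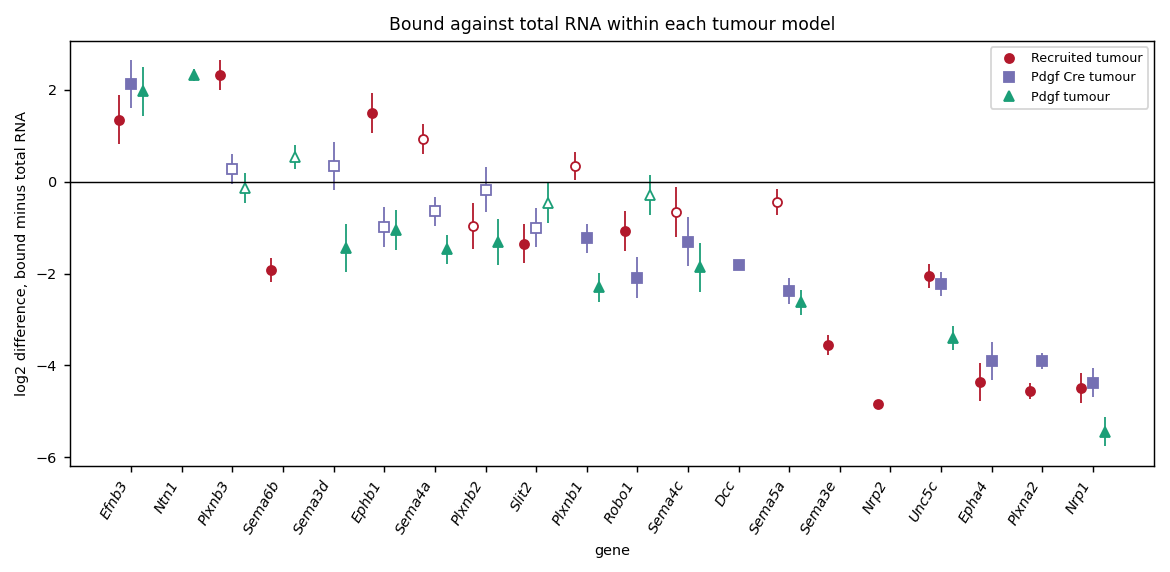
Log2 difference, bound minus total RNA, ± SE within each tumour model for the 20 guidance genes called in at least 1 of them; filled symbols are called. Nrp1 and Unc5c lie below 0 in all 3 models and Efnb3 above 0 in all 3, while Sema6b lies below 0 in Recruited and above 0 in Pdgf tumours, where it was not called. Genes dim in both bound and total RNA of a model have no point there.

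Bound over total RNA itself differed between models for several genes, tested as a difference of differences. For Sema6b the Recruited value was -1.92, against 0.54 in Pdgf, a difference of -2.45 (limma adjusted p = 2.54e-06); in Pdgf Cre it was dim in both bound and total RNA. Plxnb3 gave 2.32 in Recruited, against 0.28 in Pdgf Cre and -0.13 in Pdgf (adjusted p = 0.000678 and 7.13e-05). Plxnb1 gave 0.34 in Recruited, against -1.24 in Pdgf Cre and -2.30 in Pdgf (adjusted p = 0.0053 and 1.57e-05). Plxnb1 was thus lower in bound than in total RNA in the Pdgf Cre and Pdgf models and not called in Recruited tumours, where Plxnb3 was higher in bound RNA.

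The last comparisons set the models against each other in bound RNA of Olig2 cells. In Recruited tumours 10 members were higher and 3 lower than in Pdgf tumours (36.1%, against 20.4% of all genes, 10.1% higher and 10.4% lower), and 10 higher and 3 lower than in Pdgf Cre tumours (36.1%, against 28.5%, with 14% higher and 14.5% lower). The 2 comparisons share the Recruited arrays. Unc5b, Sema5a, Sema4a, Unc5c, Ephb1, Efnb3, Plxnb1, Sema4f and Plxnb3 were higher in both, and Ephb6 lower in both.

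Unc5b was at 5.98, 8.03 and 8.21 in Recruited, against 2.72, 2.75 and 2.74 in Pdgf Cre and 2.73, 2.84 and 2.86 in Pdgf tumours, at least 3.40-fold higher in either comparison (4.67 ± 0.29 and 4.60 ± 0.29). The low Recruited value was array 1, and without it the differences were 5.38 and 5.31. Sema5a, at 7.003, 7.69 and 7.67 in Recruited, was at least 3.50-fold higher than in Pdgf Cre (3.67 ± 0.28) and in Pdgf tumours (2.497 ± 0.28). Sema4a, a class 4 semaphorin, was at 7.14, 7.85 and 8.31 in Recruited, against 5.63, 5.90 and 5.68 in Pdgf Cre (4.07-fold) and 5.64, 5.67 and 5.25 in Pdgf tumours (at least 4.35-fold). Unc5c was at 5.76, 5.88 and 5.77 in Recruited, against 3.88 to 4.04 in Pdgf Cre and 3.56 to 3.84 in Pdgf tumours, just above the dim limit (at least 1.12-fold in either). None of these arrays overlapped.

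Ephb1 was at 6.55, 8.95 and 9.49 in Recruited, against 6.29, 7.15 and 7.15 in Pdgf Cre (2.77-fold, arrays overlapping) and 6.26, 6.30 and 5.59 in Pdgf tumours (4.86-fold; log2 difference 2.28, and 3.17 without Recruited array 1). Efnb3 overlapped in both comparisons through Recruited array 1 (3.83-fold over Pdgf Cre and 4.80-fold over Pdgf). Plxnb3 (3.04-fold and 2.92-fold), Sema4f (3.38-fold and 2.96-fold) and Plxnb1 (2.39-fold and 3.58-fold) were higher than in Pdgf Cre and Pdgf tumours, in that order. Robo1 was 5.30-fold higher than in Pdgf Cre tumours, and Sema4c 2.64-fold higher than in Pdgf tumours with overlapping arrays. When only the arrays compared gave the spread, 8 members were called against Pdgf Cre, and Efnb3, Ephb1, Plxnb3, Plxnb2 and Sema3d were lost; against Pdgf, Efnb3, Ephb1, Sema4c and Sema4f were lost. Without Recruited array 3, 8 members were called against Pdgf Cre, all of them higher.

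The lower members were few. Ntn1 was at 3.89, 4.02 and 4.03 in Recruited, against 6.43, 6.50 and 6.42 in Pdgf tumours (at least 1.75-fold lower, -2.47 ± 0.13). Sema4g was at 6.89, 8.03 and 7.31 in Recruited, against 8.65, 8.62 and 8.61 in Pdgf tumours (2.33-fold lower), but the log2 difference was -0.96 without Recruited array 1. Ephb6 was at least 1.72-fold lower than in Pdgf Cre and at least 1.69-fold lower than in Pdgf tumours, and it lost its call when any of 5 arrays was left out against Pdgf Cre, or any of 4 against Pdgf. Plxnb2 (2.33-fold) and Sema3d (at least 1.71-fold) were lower than in Pdgf Cre tumours, both with overlapping arrays; without Recruited array 1 no member was lower than in Pdgf Cre tumours. With spike-in scaling Unc5c was called in neither comparison, Ephb6 and Sema4g not against Pdgf and Plxnb2 not against Pdgf Cre; on the deposited values Ephb6, Plxnb2 and Sema3d were not called against Pdgf Cre. Beside the 10 higher members, all 7 mature oligodendrocyte markers and 6 of 7 astrocyte markers were higher in Recruited than in either other model; the summed astrocyte markers were at 13.9 to 14.1 in Recruited, against 8.81 to 9.10 in Pdgf Cre and 8.75 to 9.29 in Pdgf tumours, and the part of these markers' cells in the members' differences was not tested.

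Pdgf Cre and Pdgf tumours differed in 5 members, 1 higher and 4 lower in Pdgf Cre (13.9%, against 12.4% of all genes, 5.91% higher and 6.50% lower). Robo1 was at 5.94, 5.17 and 6.85 in Pdgf Cre, against 8.33, 9.24 and 8.06 in Pdgf tumours (5.90-fold lower, -2.56 ± 0.44, adjusted p = 2.45e-05). Ntn1 was at 3.91, 3.96 and 3.95 in Pdgf Cre, against 6.43, 6.50 and 6.42 in Pdgf tumours (at least 1.75-fold lower), Sema6b at 5.39, 5.41 and 5.38 against 7.31, 7.28 and 6.69 (at least 2.72-fold lower) and Sema4g at 7.11, 7.33 and 7.33 against 8.65, 8.62 and 8.61 (2.59-fold lower). Robo1, a Slit receptor, thus differed between the 2 models, while Slit2 was not called. Ntn1 passed the filter through the Pdgf arrays alone, so its difference is a description only. Sema3d was at least 1.71-fold higher (adjusted p = 0.0365) and lost its call without any of 5 of the 6 arrays and on the deposited values, and Sema4g lost its call with spike-in scaling. Of the mature markers, 3 of 7 were higher in Pdgf Cre tumours.

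Other genes of the guidance pathways, from a list of 74 adhesion partners, co-receptors and cytoskeletal effectors, were read in the same comparisons (61 measured, 48 tested). Against cortex total RNA 14 were higher and 19 lower in mature oligodendrocytes (29.2% and 39.6% of the 48, against 22.7% and 24.1% of all genes), 9 and 22 in astrocytes (18.8% and 45.8%, against 29.1% and 26.7%), and none and 6 in neurons (12.5% lower, against 11% higher and 11.4% lower). In tumour against cortical Olig2 cells 4 were higher and 11 lower (8.33% and 22.9%, against 10.1% and 11.9%). The L1-family adhesion molecules Chl1 (at least 1.68-fold) and Nrcam (2.23-fold) and the contactin Cntn1 (2.57-fold) were higher, and the myelin inhibitor Mag was 26.6-fold lower with overlapping arrays, the actin-binding Ablim3 at least 2.55-fold, the kinase Abl1 at least 7.03-fold and the Rac regulator Chn2 4.04-fold. Between Recruited and Pdgf tumours 6 were higher and 2 lower (12.5% and 4.17%, against 10.1% and 10.4%): Mag (12.08 against 4.61, at least 86.4-fold), the semaphorin effector Dpysl2 (4.09-fold), the netrin receptor Neo1 (2.85-fold) and Rtn4 (2.62-fold), which encodes the myelin inhibitor Nogo, led the higher ones, and Rac3 (at least 1.34-fold) and the Nogo receptor partner Lingo1 (3.05-fold) were the lower ones. Between progenitors and mature oligodendrocytes 11 were higher and 8 lower (22.9% and 16.7%, against 15.7% and 17.3%), led by the semaphorin effectors Mical1 (at least 6.94-fold) and Dpysl3 (at least 18.02-fold) and, lower, by the contactin Cntn2 (at least 5.74-fold).

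Members that did not pass the filter can be given only as such. They were Efna2, Efna4, Efnb2, Epha1, Epha2, Epha3, Epha5, Epha6, Epha8, Ephb4, Ntn3, Ntn4, Plxna1, Plxna3, Plxnc1, Robo4, Sema3a, Sema3b, Sema3c, Sema3f, Sema4b, Sema5b, Sema6c, Sema6d, Slit3 and Unc5cl. Sema3a, a secreted repellent, had a mean just above the dim limit in neurons alone (5.68) and was not tested. A dim probe set says that the array did not read the gene above its floor, not that the gene is silent.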

How the data were processed

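Per the submitters' processing notes, the authors made the deposited log2 signals with GCRMA; its version is not given in the sources used here. Each group's files share a minimum of their own; whether that step ran group by group is not given in those sources. Of 16395 probe sets, 64 were controls and 687 had no gene in the platform annotation; 15644 had 1 gene each and none had several. Of the symbols 15617 matched RefSeq and none changed. All 38 arrays were quantile-normalized together (limma 3.58.1, R 4.3.3). The filter kept the 9799 genes whose log2 signal passed 5.64 (a signal of 50) on 3 or more arrays and left out 5845.

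One limma model of the 12 groups (26 residual degrees of freedom) gave every contrast, with Benjamini-Hochberg adjustment over all tested genes. A call needed an adjusted p under 0.05, a change of at least 2-fold and a higher group above the dim limit. It was tested on simulated data. A gene highest in a population was called higher against each of the other 3. Precision rests on 3 arrays a group (5 for cortex); arrays give no read depth.

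Named were, in each comparison, up to 8 called members in each direction with the largest differences among those whose arrays did not overlap, the members highest in a population, and the 4 members of highest level in each family in Olig2 cells; other called members, among them those with overlapping arrays, were named after their values were seen. The members and all gene lists were chosen with earlier results of these data known. In tumours, bound and total arrays of the same number deviated together, with correlations of 0.626, 0.618 and 0.473 in Pdgf, 0.621, 0.428 and 0.555 in Pdgf Cre, and 0.466, 0.266 and 0.488 in Recruited. A block for these pairs was therefore run as an alternative. The reported differences, SEs and p-values come from the model without it. Alternatives were the deposited values, spike-in scaling, a stricter filter (100), no filter, a 1.5-fold threshold, a trended prior, only the arrays compared, the replicate block, leaving out each array and, added after seeing the data, leaving out the Recruited model.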

Additional observations from a re-analysis of the deposited data

Results flagged for a closer look

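Among the 23 members above the dim limit in cortex total RNA, 6 had an array far below the other 4. The measure was Dixon's criterion, which chance meets in about 1 of 20 groups. The share of all genes that met it is not given here. Unc5b, Efnb1 and Sema3d also met it, with a high array, but are dim in cortex and were left out. Array 2 was the low one for Efnb3 (6.84), Epha7 (7.04) and Sema3e (6.68). Array 5 was the low one for Ntn5 (5.78), Plxnb3 (6.74) and Sema4c (5.44).

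Of 17 members above the dim limit in bound or total RNA of both models, 8 differed by at least 2-fold between Recruited and Pdgf tumours in bound over total RNA, by a limma test of the difference itself. In 6 of them the sign was opposite in the 2 models, and Sema5a and Unc5c had the same sign in both. Several of the opposite signs rest on a value not called against total RNA. Its limma adjusted p was 0.34 for Plxnb1 in Recruited, and 0.37 for Ephb3, 0.77 for Plxnb3 and 0.081 for Sema6b in Pdgf tumours. For these genes the test shows that the models differ, not that their directions are opposite. Ephb1 was 1.49 in Recruited and -1.04 in Pdgf tumours, a difference of 2.53 (adjusted p = 0.00133). Ephb3 was 0.80 in Recruited and -0.25 in Pdgf tumours (1.06, adjusted p = 0.00953). Plxnb1 differed by 2.64, Plxnb3 by 2.45, Sema4a by 2.40 (0.93 and -1.47) and Sema6b by -2.45. Against Pdgf Cre tumours 5 of 18 members differed, 3 of them with opposite sign: the Recruited value differed by 2.49 for Ephb1 (1.49 in Recruited and -0.99 in Pdgf Cre), 1.58 for Plxnb1 and 1.57 for Sema4a (0.93 and -0.65). In each of these 3, at least 1 of the 2 values was not called on its own. Both sets share the Recruited arrays, among them total array 3, which stood apart in its markers. The share of all genes that differed by this test is not given here. These counts of members thus cannot be set against genes in general.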

How the results depend on the processing

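No result reversed under any alternative run. Most counts of called members stayed within 1.5 times the reported ones, with 4 exceptions. Genes highest in astrocytes numbered 1 instead of 2 with the deposited values and with spike-in scaling, Nrp1 being lost, and 1 to 2 when each array was left out. Recruited bound against total had 20 calls instead of 12 with spike-in scaling, 1 higher and 19 lower. Pdgf Cre against Pdgf had 3 instead of 5 with the stricter filter. Recruited against Pdgf Cre had 8 instead of 13 when only the arrays compared gave the spread, and 8 to 13 when each array was left out. The causes were not tested. With the pairs as a replicate block, all 11 calls in Pdgf, 10 in Pdgf Cre and 12 in Recruited bound against total RNA were kept. Elsewhere the arrays share only a number, and a replicate block on it left 4 calls in Pdgf Cre against Pdgf (Sema3d lost) and 12 in Recruited against Pdgf (Ephb6 lost), with no other call lost. The members named by rank, each counted once per comparison, numbered 152 with the 1.5-fold threshold, where all kept their call. Of these, 141 kept it with the deposited values, 138 with spike-in scaling and 121 with the stricter filter. With only the arrays compared 145 kept it, and with no filter 150. Called members outside that ranking, among them those with overlapping arrays, are not in these counts. The median of all genes, between -0.06 and 0.13 (log2) as reported, ran from -0.38 in progenitors against mature oligodendrocytes to 0.66 in neurons against cortex on the deposited values, and from -0.50 in Recruited bound against total RNA to 0.22 in Pdgf Cre against Pdgf with spike-in scaling. Without the Recruited model, an alternative chosen after seeing the data, tumour Olig2 cells had 11 calls against cortical ones and tumour total RNA 21 against cortex. The few arrays a group and any group-wise normalization before deposit limit all of these values, and a dim gene has no measured order.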
